A study of Mus musculus with 4 samples.

Results

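The genes described here are those compared between Hps1-deficient and wild-type mice in lung innate lymphoid cell preparations sorted after bleomycin, above all those lower in the mutant, with collagen, immunoglobulin and 10 named matrix genes set aside. The comparison was BLEO-HPS1 (Hps1-/- mice given bleomycin) against BLEO-WT (wild-type mice given bleomycin), with PBS-HPS1 and PBS-WT (the same genotypes given PBS) as the untreated background. All mice were C57BL/6, and the Hps1-/- animals carried the mutation in every tissue, so that a difference is not restricted to a mutation acting within the sorted cells. Each of the 4 groups was 1 RNA-Seq library of cells sorted from lung as Lineage-Thy1.2+ICOS+T1/ST2+, and by the study's methods all sorted cells were then kept in culture with IL-2 before their RNA was taken. The study gave bleomycin by both the intratracheal and the intraperitoneal route, with different doses and days of harvest, and which of these applied to the sequenced libraries was not stated in the sources used here, nor was the number of mice behind a library. The kept genes had at least 1 CPM (the read count of a gene scaled to a common library size) in either bleomycin library and did not belong to the groups set aside, which left 13866 of 14027 compared genes and of 49315 genes in the table.

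Group 2 innate lymphoid cells (ILC2s) are tissue lymphocytes without antigen receptors that respond to epithelial alarmins such as IL-33 through the receptor ST2, encoded by Il1rl1. Hps1 encodes a subunit of the BLOC-3 complex, which acts in the making of lysosome-related organelles, and its loss causes Hermansky-Pudlak syndrome, in which pulmonary fibrosis is a frequent cause of death. Bleomycin breaks DNA and injures the lung epithelium, and the injured lung fills with neutrophils, recruited monocytes and macrophages derived from them. These are the cells whose genes make up many of the groups below.

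With 1 library per group there was no replicate error. No significance test was possible, and every difference compares 2 libraries. The bracketed ranges are exact 95% Clopper-Pearson intervals of each log2 ratio of BLEO-HPS1 over BLEO-WT, which cover counting error only and not the spread between mice, sorts or library preparations. The libraries held 72513619, 77703133, 87638154 and 77428740 counted reads, made from 22405, 38873, 84166 and 128647 cells, in the order PBS-WT, then PBS-HPS1, then BLEO-WT, then BLEO-HPS1, and wherever 4 levels of a gene are given together below they are in this order. A count of 3 reads corresponded to 0.0303 to 0.0475 CPM. At 10 CPM or more the interval extended a median of 0.0756 log2 units to either side of a ratio, so that counting error was small beside a 2-fold difference.

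Hps1 itself was lower in both mutant libraries, at 38.3 CPM in PBS-WT and 16.6 CPM in PBS-HPS1, and at 48.4 CPM in BLEO-WT against 21.3 CPM in BLEO-HPS1. The log2 ratio was -1.18 (-1.27 to -1.09) after bleomycin and -1.20 with PBS. The libraries followed their genotype labels, and reads of the gene were still present in the mutant mice.

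The sort label was checked against marker lists. The ILC2 list had 20 compared genes, of which 0 were 2-fold lower and 5 were 2-fold higher in BLEO-HPS1 (Thy1, Tnfrsf18, Klrg1, Calca and Nmur1, and 0 after the correction described below), and its summed level was 1448 CPM in BLEO-WT and 1507 CPM in BLEO-HPS1. Genes of other cells were abundant in the same libraries. Gata3, the transcription factor that defines ILC2s, stood at 7.80 and 8.37 CPM per kilobase of its longest transcript in BLEO-WT and BLEO-HPS1, whereas C1qa, a complement gene of macrophages, stood at 1340 and 1970 CPM per kilobase. Summed tissue macrophage markers were 9204 CPM in BLEO-WT and 10082 CPM in BLEO-HPS1, and summed monocyte markers were 31089 and 24813 CPM. The monocyte list had 1 lower and 3 higher of 18 genes, with a median log2 ratio of 0.36. The lineage gate selects against CD3, CD11b, CD45R/B220, Ly76, Ly6G and Ly6C, and the study reports a high purity of the sorted cells. Transcripts of gated proteins were nevertheless detected. Cd3e, a T cell receptor component, was at 69.9 CPM in BLEO-WT and 134.6 CPM in BLEO-HPS1, and Itgam, which encodes CD11b, was at 236 and 151 CPM. The libraries thus held transcripts typical of myeloid cells and of other lymphocytes, whose source was not tested, and in such bulk samples fewer cells of a type and less RNA per cell cannot be told apart.

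Of the 13866 genes, 1333 (9.61%) were at least 2-fold lower in BLEO-HPS1 than in BLEO-WT and 839 (6.05%) were at least 2-fold higher, with a median log2 ratio of -0.03. The lower side held more genes but smaller differences. At a 4-fold difference there were 32 lower and 127 higher genes, while among the 9707 genes with 10 CPM or more 922 were 2-fold lower and 387 were 2-fold higher. The split between directions moved with the scaling of the libraries. The lower genes made up 61.4% of the 2-fold differences with TMM scaling, 51.1% with DESeq2 size factors, 44.5% with upper-quartile factors and 76.5% with total counts alone. Upper-quartile factors put the median of all genes at 0.08 and total counts alone put it at -0.17.

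The lower genes had long, AT-rich transcripts. Their median GC content was 44.1% and their median longest transcript was 4866 bases, against 54.2% and 2242.5 bases for the higher genes and 50.0% and 3268 bases for all of them. In the quintile of genes with the lowest GC content 24.1% were 2-fold lower and 1.99% higher, and in the quintile with the highest GC content 1.45% were lower and 12% higher. In the quintile with the longest transcripts 22.3% were lower, against 4.15% in the quintile with the shortest. Across 13841 genes with annotation, Spearman's rho of the log2 ratio was 0.563 with GC content and -0.428 with length. The PBS comparison gave -0.0629 and 0.340, so the slope with GC content was close to flat and the slope with length had the opposite sign there. Both properties move with the ratio and also with gene class, so each group below is given as measured and with the smooth trend (loess) on both properties taken out, which is called the corrected ratio. With the correction 471 genes (3.40%) were 2-fold lower and 646 (4.67%) 2-fold higher, of which 297 and 437 had also been so without it. The part of library preparation in the slope was not tested. For the list counts below, the shares of all genes are the background. These were 9.61% lower and 6.05% higher as measured, and 3.40% and 4.67% with the correction.

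**Figure D1:**
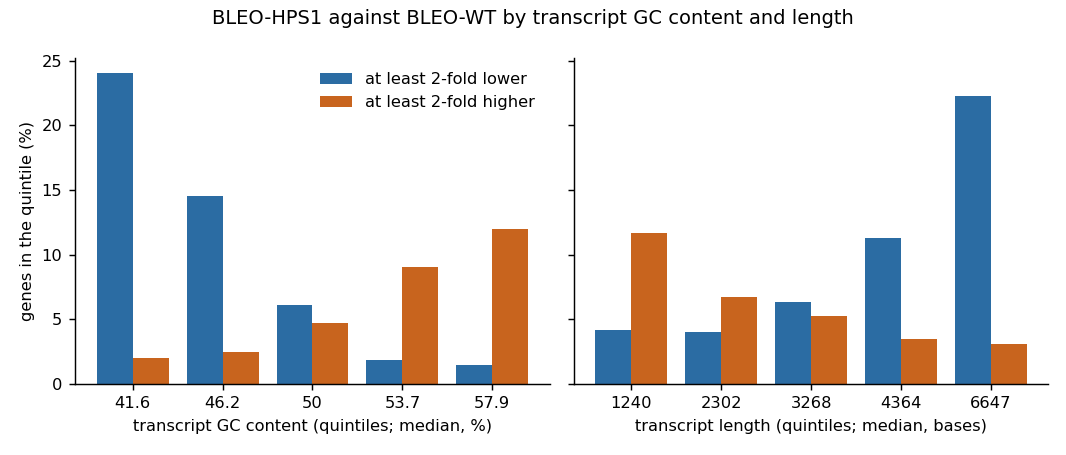
Share of genes at least 2-fold lower (blue) or higher (orange) in BLEO-HPS1 than in BLEO-WT, in % of the genes of each quintile, for quintiles of transcript GC content (left, labelled with the median GC content in %) and of longest transcript length (right, labelled with the median length in bases). The lower share falls from 24.1% to 1.45% from the lowest to the highest GC quintile, and the higher share runs the other way, from 1.99% to 12%.

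Apart from a pseudogene described at the end, the largest decreases among genes with at least 10 CPM were led by genes of activated and haemoglobin-clearing macrophages. Acod1 makes the immunometabolite itaconate in activated myeloid cells and lies on chr14:103046977-103056573 in GENCODE M21 (build GRCm38). It was measured at 58.1 CPM in PBS-WT and 56.4 CPM in PBS-HPS1, and at 38.2 CPM in BLEO-WT against 6.95 CPM in BLEO-HPS1. The bleomycin-treated mutant library stood below all the others, with a log2 ratio of -2.46 (-2.61 to -2.32) and a corrected ratio of -2.37. Cd163 encodes the scavenger receptor for haptoglobin-haemoglobin complexes. Its levels were 33.4, 24.8, 134 and 27.4 CPM in the 4 libraries, a log2 ratio of -2.29 (-2.36 to -2.21) with a corrected ratio of -1.96. The wild-type bleomycin library was the high one, and the mutant library was at the level of the PBS libraries. Rnase2a, an eosinophil-associated ribonuclease gene, was scarce in both PBS libraries and intermediate in BLEO-HPS1, at 0.282, 0.131, 21.8 and 4.58 CPM in the same order, with a log2 ratio of -2.24 (-2.43 to -2.07).

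Several further genes of this group act in membrane traffic and nutrient sensing. Myo5a, the motor that carries melanosomes and other lysosome-related organelles along actin, was at 71.4, 51.9, 148 and 41.6 CPM in the 4 libraries, a log2 ratio of -1.83 (-1.89 to -1.77). Dmxl2, which takes part in the assembly of the vacuolar proton pump, gave a log2 ratio of -1.93 (-2.02 to -1.85) from 144, 182, 82.0 and 21.5 CPM. Fnip2, a partner of folliculin in lysosomal nutrient sensing, was at 29.8, 27.8, 87.5 and 25.2 CPM, with a log2 ratio of -1.79 (-1.87 to -1.72). Myo5a and Fnip2 were highest in BLEO-WT, whereas Dmxl2 was higher in both PBS libraries than in either bleomycin library. Mitf, a transcription factor of melanocytes, mast cells and macrophages that controls lysosomal genes, had 35.5 CPM in BLEO-WT and 10.6 CPM in BLEO-HPS1, against 23.8 and 29.4 CPM in the PBS libraries. Tgfbr1, the type I receptor for TGF-beta, had a log2 ratio of -1.69 (-1.75 to -1.64), with 175 CPM in BLEO-WT and 54.1 CPM in BLEO-HPS1. Skil, a repressor of TGF-beta signalling, had -1.73 (-1.79 to -1.68), with 160 CPM in BLEO-WT and 48.1 CPM in BLEO-HPS1. Tet2, a 5-methylcytosine oxidase, was the smallest decrease of these 25 genes at -1.67 (-1.81 to -1.54). The correction took Myo5a to -0.99, Tgfbr1 to -0.90, Skil to -0.90 and Tet2 to -0.87, short of a 2-fold difference, and left Dmxl2 at -1.07, Fnip2 at -1.30 and Mitf at -1.07. These genes do not stand for lysosomal or autophagy genes as a group. Lysosomal enzymes and membrane proteins had 1 lower of 46 (2.17%, against 9.61% of all genes), with a median of -0.07. Autophagy genes had 4 lower of 39 (10.3%), with a median of -0.26. After the correction both lists had 0 lower.

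**Figure D2:**
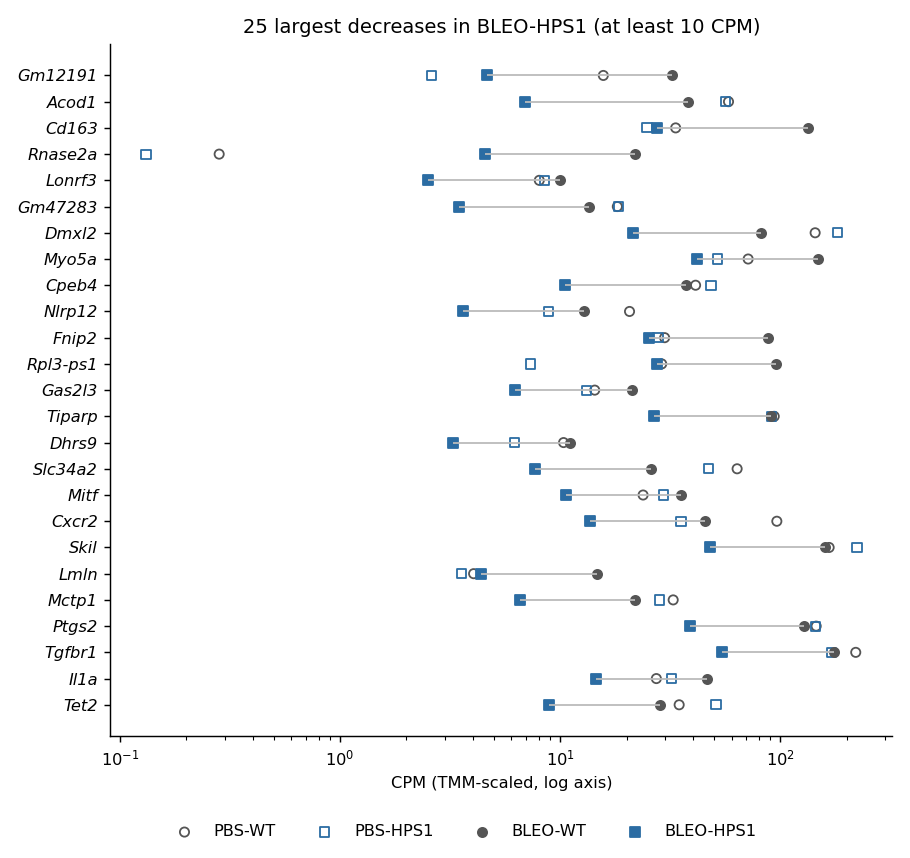
Levels in CPM (log axis) of the 25 genes with the largest decreases in BLEO-HPS1 among genes with at least 10 CPM in the higher bleomycin library, 1 symbol per library: open circles PBS-WT, open squares PBS-HPS1, filled circles BLEO-WT, filled squares BLEO-HPS1. A grey line joins the bleomycin libraries, for example 38.2 and 6.95 CPM for Acod1, and for Cd163, Rnase2a and Fnip2 the BLEO-WT library stands above the other 3.

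Immediate early genes, which cells switch on within minutes of a stimulus, were lower as a group after bleomycin. Of 29 compared genes 8 were 2-fold lower and 0 were 2-fold higher, with a median log2 ratio of -0.42 against -0.03 for all genes. These transcripts are GC-rich, at a median of 54.4%, and the correction took the median to -0.81, with 10 lower. With PBS the same list had a median of -0.02 and 0 lower genes. NF-kappaB feedback and target genes had 8 lower and 0 higher of 28, with a median of -0.32 (corrected -0.53, 3 lower) and a PBS median of -0.12 with 0 lower. The transcription factors behind both programmes bind short motifs near the start of their targets, cyclic AMP response elements for CREB-family factors and kappaB sites for NF-kappaB, and the promoters of 5 of the lower genes that carry such a motif are shown. They are the 250 bases before the RefSeq transcript start (GRCm38.p6), on the gene's own strand. Capitals mark TGACG, the element's half-site, on either strand (its reverse complement reads CGTCA) in Nr4a2 (chr2:57124004-57124253, minus strand), Nr4a3 (chr4:48045055-48045304, plus strand) and Klf4 (chr4:55532476-55532725, minus strand). In Il6 (chr5:30012864-30013113, plus strand) and Cxcl2 (chr5:90903649-90903898, plus strand) they mark the kappaB motif, GGGA and TTCC with any 2 bases between, also searched on both strands.
Nr4a2: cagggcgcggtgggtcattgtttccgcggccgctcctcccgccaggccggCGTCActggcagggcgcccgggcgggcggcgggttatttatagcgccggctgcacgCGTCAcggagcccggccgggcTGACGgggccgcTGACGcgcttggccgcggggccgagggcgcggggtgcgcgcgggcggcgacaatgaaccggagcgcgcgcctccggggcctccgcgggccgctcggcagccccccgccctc
Nr4a3: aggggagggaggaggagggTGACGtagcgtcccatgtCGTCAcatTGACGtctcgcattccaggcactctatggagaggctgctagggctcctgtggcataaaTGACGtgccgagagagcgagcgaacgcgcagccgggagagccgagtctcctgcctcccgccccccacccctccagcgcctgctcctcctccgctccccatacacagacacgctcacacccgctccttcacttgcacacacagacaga
Klf4: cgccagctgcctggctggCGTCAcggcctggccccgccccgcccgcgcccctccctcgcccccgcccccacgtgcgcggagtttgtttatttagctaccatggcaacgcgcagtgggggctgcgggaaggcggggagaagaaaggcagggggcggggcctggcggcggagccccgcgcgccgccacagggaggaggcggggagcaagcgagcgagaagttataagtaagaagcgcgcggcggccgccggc
Il6: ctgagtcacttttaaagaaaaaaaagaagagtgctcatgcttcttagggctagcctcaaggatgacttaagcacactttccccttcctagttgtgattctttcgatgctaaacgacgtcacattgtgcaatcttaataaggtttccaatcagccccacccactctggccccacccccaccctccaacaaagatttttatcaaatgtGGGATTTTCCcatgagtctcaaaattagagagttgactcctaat
Cxcl2: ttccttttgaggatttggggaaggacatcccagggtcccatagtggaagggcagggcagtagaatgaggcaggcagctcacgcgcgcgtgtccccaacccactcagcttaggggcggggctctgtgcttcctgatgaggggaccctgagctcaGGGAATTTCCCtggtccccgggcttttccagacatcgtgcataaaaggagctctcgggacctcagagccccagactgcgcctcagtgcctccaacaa

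The half-site was found in 18 of the 30 promoter entries of the immediate early list (60.0%, 24 genes with an entry), in 25.6% of the 13272 promoters of compared genes and in 17.8% of all 32851 promoters. The full element TGACGTCA, which contains the half-site, was in 3 of the 30 immediate early entries (10%). It was in 2.46% of the promoters of compared genes and in 1.55% of all. The kappaB motif was in 21.4% of the 28 promoter entries of the NF-kappaB list (23 genes). It was in 1.29% of the promoters of compared genes and in 1.21% of all. Within the immediate early list, 5 of 7 lower genes and 10 of 17 genes that were not 2-fold lower held the half-site, so most of both held the motif. The kappaB motif was in 2 of 7 lower genes of the NF-kappaB list, Il6 and Cxcl2, and in 3 of 16 that were not 2-fold lower. A match gives letters in this window and does not show that a factor was bound.

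Nr4a2, an orphan nuclear receptor gene induced by acute signals, was at 43.6 CPM in PBS-WT and 68.7 CPM in PBS-HPS1, and at 97.3 CPM in BLEO-WT against 30.6 CPM in BLEO-HPS1. The mutant library was higher than wild type with PBS and lower than wild type with bleomycin, where the log2 ratio was -1.67 (-1.74 to -1.60). Nr4a3, of the same family, ran in parallel at 57.6, 89.8, 131 and 55.2 CPM and gave -1.24 (-1.30 to -1.19), with a corrected ratio of -0.81. Egr2, a zinc finger factor induced in lymphocytes and macrophages, gave -1.37 (-1.42 to -1.32) from 71.2, 92.6, 155 and 60.2 CPM. In these 3 genes BLEO-WT was the highest library and BLEO-HPS1 was the lowest. Klf4 was at 248, 270, 471 and 209.6 CPM, with a log2 ratio of -1.17 (-1.20 to -1.14) and a corrected ratio of -1.49. Fos, a subunit of the AP-1 factor, differed less, with 2849 CPM in BLEO-WT and 1734 CPM in BLEO-HPS1 and a log2 ratio of -0.72 (-0.73 to -0.71). Junb, its partner and the most abundant gene of the list, was at 4920 and 4687 CPM, a log2 ratio of -0.07 (-0.08 to -0.06). The decrease was therefore not shared evenly by the list. Zfp36, which destabilises cytokine messages, stood between them at -0.54 (-0.55 to -0.53).

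Among the NF-kappaB genes the lower ones were a mixture of mediators, regulators and survival genes. Ptgs2, the cyclooxygenase that makes prostaglandins in inflammation, was at 145 CPM in PBS-WT and 144 CPM in PBS-HPS1, and at 128 CPM in BLEO-WT against 39.0 CPM in BLEO-HPS1. The mutant bleomycin library alone was low, with a log2 ratio of -1.71 (-1.78 to -1.65). The cytokine gene Il1a stood at 27.3, 31.9, 46.6 and 14.6 CPM, a log2 ratio of -1.68 (-1.78 to -1.57). Il6, a cytokine of the acute phase, was at 26.2, 38.7, 36.5 and 13.3 CPM, which gave -1.46 (-1.57 to -1.35). In both genes BLEO-HPS1 was the lowest of the 4 libraries. Cxcl2, a neutrophil chemoattractant, was at 706, 650, 1353 and 635 CPM, a log2 ratio of -1.09 (-1.11 to -1.07). Rel, an NF-kappaB subunit, gave -1.36 (-1.43 to -1.30), the survival gene Birc2 gave -1.26 (-1.38 to -1.15) and Tnfaip3, the ubiquitin-editing inhibitor A20, gave -1.08 (-1.10 to -1.06). Other inflammatory mediators were less than 2-fold lower, with -0.87 for Ccl3, -0.83 for Il1b, -0.71 for Cxcl1 and -0.65 for Tnf. The correction left Il1a at -1.28 and took Ptgs2 to -0.98, Il6 to -0.94, Cxcl2 to -0.90, Birc2 to -0.74, Rel to -0.53 and Tnfaip3 to -0.51, and it took Tnf to -1.05 and Ccl3 to -1.12. Nfkbia, the inhibitor that NF-kappaB induces within minutes, was at 1144 CPM in BLEO-WT and 961 CPM in BLEO-HPS1, only -0.25 (-0.27 to -0.24) apart. The monocyte chemoattractants Ccl2 and Ccl7, like Birc2, Tnf, Cxcl1 and Ccl3 named after their values were seen, had log2 ratios of -1.23 (-1.31 to -1.16) and -1.13 (-1.28 to -0.99), from 77.1 and 19.6 CPM in BLEO-WT, and their PBS ratios were -0.19 and -0.18.

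**Figure D3:**
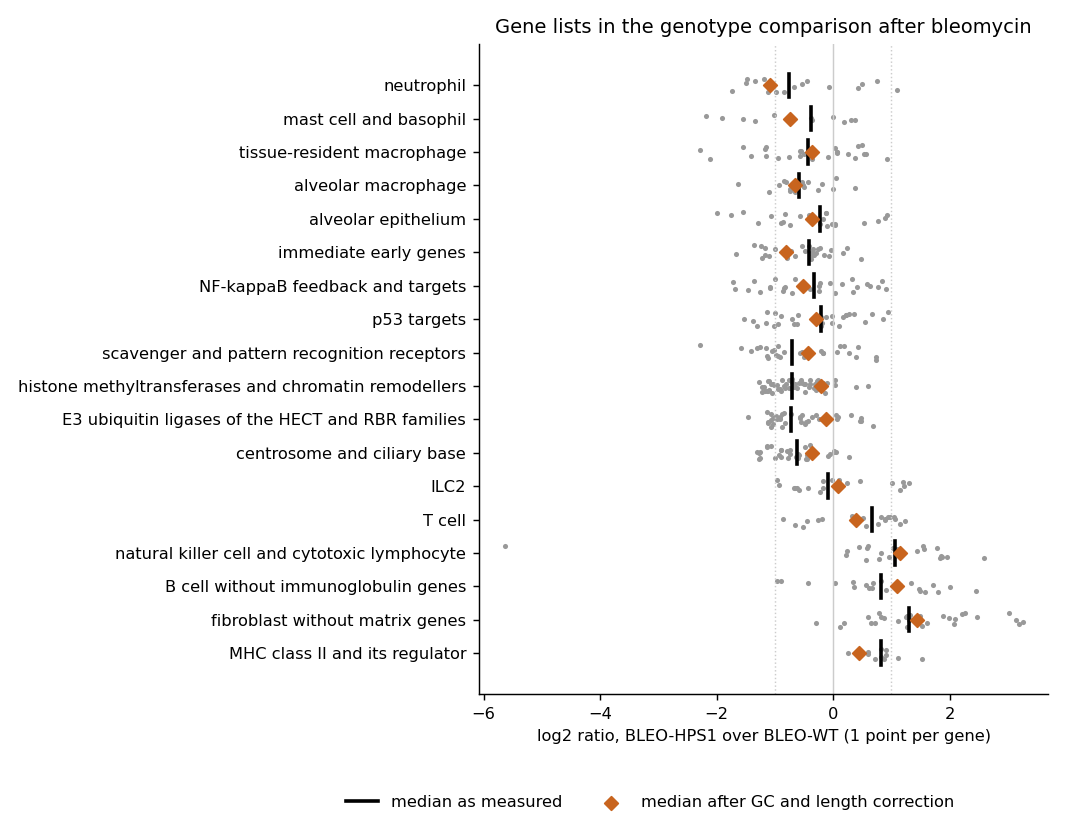
Log2 ratio of BLEO-HPS1 over BLEO-WT for each compared gene of 18 lists (grey points, spread vertically at random for legibility), with the list's median as measured (black bar) and after the GC and length correction (orange diamond). Dotted lines mark a 2-fold difference. The immediate early median moves from -0.42 to -0.81 with the correction, the chromatin median from -0.70 to -0.21, and the fibroblast median is 1.31.

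Macrophage genes did not move as one group. The tissue-resident macrophage list had 7 lower and 0 higher of 26 compared genes, with a median of -0.43 (corrected -0.37, 5 lower), although its summed level was higher in BLEO-HPS1. As measured, its complement genes lay above 0 and some of its phagocytic receptors below. C1qa was at 143, 73.2, 1391 and 2047 CPM in the 4 libraries, a log2 ratio of 0.56 (0.55 to 0.57), and Csf1r, the receptor for the macrophage growth factor, had 0.25 (0.24 to 0.26). Mertk, a receptor for apoptotic cells, was at 173, 185, 183 and 62.8 CPM, which gave -1.54 (-1.59 to -1.49). BLEO-HPS1 was the only low library for that gene. Mrc1, the mannose receptor CD206, was also lowest in BLEO-HPS1, at 647, 621, 702 and 266 CPM with a log2 ratio of -1.40 (-1.43 to -1.38). The complement receptor gene Vsig4 was scarce throughout, at 0.654, 0.101, 5.09 and 1.16 CPM, and was lower in the mutant under both treatments, by -2.43 with PBS and -2.11 (-2.52 to -1.78) with bleomycin. Corrected ratios were -1.25 for Mertk, -0.69 for Mrc1 and -2.0 for Vsig4. They were 0.12 for Csf1r and below 0 for the complement genes C1qa (-0.21), C1qb (-0.20) and C1qc (-0.25), so the sign of the C1q genes turned with the correction.

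Scavenger and pattern recognition receptors had 10 lower and 0 higher of 30, with a median of -0.71, which became -0.44 with 2 lower after the correction. Tlr4, the receptor for lipopolysaccharide, was at 44.0, 39.5, 29.5 and 9.85 CPM in the 4 libraries, with a log2 ratio of -1.58 (-1.71 to -1.46). Clec4e, which recognises mycobacterial glycolipid, was at 62.9, 62.3, 64.4 and 26.1 CPM and had -1.30 (-1.38 to -1.22). The other 3 libraries stood together for Clec4e, and the corrected ratios of Tlr4 and Clec4e were -0.87 and -0.57. Tlr2, the receptor for bacterial lipopeptide, was at 363, 411, 554 and 273 CPM, which gave -1.02 (-1.05 to -1.0) with or without the correction. Stab1, a scavenger receptor of similar abundance, was level at 551 and 578 CPM in the bleomycin libraries, a log2 ratio of 0.07 (0.05 to 0.09).

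Genes typical of alveolar macrophages, the resident phagocytes of the airspace, were lower in sum. Their summed level was 10070 CPM in PBS-WT and 8334 CPM in PBS-HPS1, and 7335 CPM in BLEO-WT against 4680 CPM in BLEO-HPS1. Of 19 compared genes 17 had a ratio below 0, with a median of -0.58 (corrected -0.66). Only 2 (10.5%) were 2-fold lower, near the 9.61% of all genes, and 0 were 2-fold higher. Atp6v0d2, a proton pump subunit, was at 318, 334, 184 and 59.1 CPM, a log2 ratio of -1.64 (-1.69 to -1.59). Lpl, which hydrolyses triglyceride, was at 957, 448, 378 and 176 CPM and was 2-fold lower under both treatments, by -1.09 and -1.10 (-1.13 to -1.07), though the corrected ratio with bleomycin was -0.51. Chil3, a chitinase-like gene, stood just short of 2-fold at -0.93 (-0.94 to -0.92), from 3341 CPM in BLEO-WT and 1758 CPM in BLEO-HPS1. Chil3 belongs to the monocyte list as well, makes up a large part of the summed level here and counts in both sums. Itgax, the CD11c integrin, was at 741 and 767 CPM and did not share the decrease.

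Neutrophil genes were lower in the mutant with and without bleomycin. Their summed level was 1962 CPM in PBS-WT and 681 CPM in PBS-HPS1, and 1150 CPM in BLEO-WT against 616 CPM in BLEO-HPS1, so both mutant libraries stood below both wild-type libraries. With bleomycin 6 were 2-fold lower and 1 higher of 16 genes, with a median of -0.75 (corrected -1.08, 11 lower), and with PBS 12 were lower with a median of -1.50. S100a9, a calcium-binding alarmin of neutrophils, was at 517, 109, 287 and 103 CPM in the 4 libraries, with a log2 ratio of -1.48 (-1.52 to -1.44) after bleomycin and -2.25 with PBS. Cxcr2, the receptor for neutrophil-attracting chemokines, was at 96.4, 35.3, 45.7 and 13.7 CPM, a log2 ratio of -1.74 (-1.85 to -1.63) after bleomycin. Mmp8, the neutrophil collagenase, gave -1.49 (-1.59 to -1.40) from 55.5, 23.2, 50.6 and 18.0 CPM. Ly6g, the surface marker by which mouse neutrophils are gated, was at 4.05, 0.586, 2.32 and 1.06 CPM, with a log2 ratio of -1.11 (-1.56 to -0.72). For S100a9, Cxcr2, Mmp8 and Ly6g each mutant library was below the wild-type library of the same treatment.

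The granule genes Camp, Ltf and Ngp did not follow. Camp, the cathelicidin gene, was at 8.68 CPM in PBS-WT and 0.212 CPM in PBS-HPS1 but at 1.19 CPM in BLEO-WT and 2.56 CPM in BLEO-HPS1, a log2 ratio of 1.10 (0.74 to 1.5) after bleomycin and a corrected ratio of 0.40. Ltf, lactoferrin, was at 70.0, 2.87, 8.11 and 13.6 CPM, which gave 0.74 (0.60 to 0.90), and Ngp, a granule protein of the cathelicidin family, at 74.8, 2.86, 11.7 and 15.8 CPM gave 0.43 (0.30 to 0.56). The corrected ratios of Ltf and Ngp were 0.58 and 0.08. Camp, Ltf and Ngp were highest in PBS-WT by a wide margin. Lcn2, another granule gene of the neutrophil list, was lower in the mutant under both treatments, at 56.2, 13.8, 50.2 and 34.7 CPM. Its log2 ratio was -0.53 (-0.61 to -0.45) after bleomycin, with a corrected ratio of -1.09, and -2.03 with PBS. These granule genes were named after their values were seen.

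Some genes of interleukin-17-producing gamma-delta T cells were lower in the mutant under both treatments. They too were named after their values were seen and come from no list set beforehand. Their shared decrease therefore follows from the choice and does not show that such genes or cells were lower as a group. Il17a, a cytokine that recruits neutrophils, was at 9.88 CPM in PBS-WT and 1.40 CPM in PBS-HPS1, and at 5.34 CPM in BLEO-WT against 1.47 CPM in BLEO-HPS1, a log2 ratio of -1.84 (-2.20 to -1.53) after bleomycin. Tcrg-V6 and Trdv4 are the receptor segments these cells use in the lung. They had 2.67 and 5.83 CPM in BLEO-WT and 0.728 and 2.47 CPM in BLEO-HPS1, with log2 ratios of -1.84 (-2.37 to -1.41) and -1.23 (-1.51 to -0.97). Cd163l1, the scavenger receptor SCART1 of such cells, was at 55.7, 18.2, 37.9 and 13.7 CPM, which gave -1.47 (-1.58 to -1.36). With PBS the ratios of Il17a, Tcrg-V6, Trdv4 and Cd163l1 were -2.79, -2.52, -2.16 and -1.61. The T cell list as a whole went the other way after bleomycin, with 0 lower and 4 higher of 20 genes and a median of 0.67. Its lowest ratio was -0.86.

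The PBS libraries shared no library with the bleomycin comparison. In them 292 genes (2.11%) were 2-fold lower and 168 (1.21%) 2-fold higher in the mutant, with a median of -0.20. In all 47 genes were 2-fold lower under both treatments, which was 3.53% of the genes lower with bleomycin and 16.1% of those lower with PBS. For the higher side the overlap was 84 genes, 10% and 50.0% of the respective sets. Besides Hps1, Vsig4, Lpl and the neutrophil and gamma-delta genes, the 47 held Ccr2, the chemokine receptor of inflammatory monocytes, at 332, 144, 330.4 and 148 CPM in the 4 libraries. Its log2 ratios were -1.20 with PBS and -1.16 (-1.20 to -1.13) with bleomycin, and the corrected ratio with bleomycin was -0.34. It was the only 2-fold lower gene of the monocyte list, in which 8 of 18 genes were below 0. Il1f9, an IL-36 family cytokine gene, and Nlrp12, an inflammasome-related sensor, had -1.97 (-2.26 to -1.71) and -1.81 (-2.04 to -1.61) with bleomycin and -1.26 and -1.22 with PBS. Alox15, the 12/15-lipoxygenase, gave -1.01 (-1.22 to -0.81) and -1.07. The same set held genes of tissues outside the sort. Neuronal Syt1, Slc17a7, Rph3a and Elavl4 were at 2.89 to 5.32 CPM in PBS-WT and 0.313 to 0.485 CPM in PBS-HPS1. With bleomycin they were at 1.06 to 2.95 CPM in BLEO-WT and at 0.807 CPM or less in BLEO-HPS1. There Syt1, Slc17a7 and Rph3a had log2 ratios of -1.07, -1.20 and -1.0, and the corrected ratio of Syt1 was -0.54. Elavl4 had -4.15, resting on 9 reads in BLEO-HPS1. These genes do not stand for nerve genes as a group. The nerve and Schwann cell list had 0 lower and 1 higher of 9 genes after bleomycin with a median of 0.37. Neuronal Nfasc and Fez1 were 2-fold higher in BLEO-HPS1, at 1.69 and 2.11. Pnliprp1, a pancreatic lipase-related gene, had 238 reads in PBS-WT, 16 in PBS-HPS1, and 164 in BLEO-WT against 2 in BLEO-HPS1, a log2 ratio of -5.22 (-9.10 to -4.17) resting on 2 reads. Apart from Hps1, Vsig4, Lpl and Nlrp12, the genes in this paragraph were named after their values were seen.

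**Figure D4:**
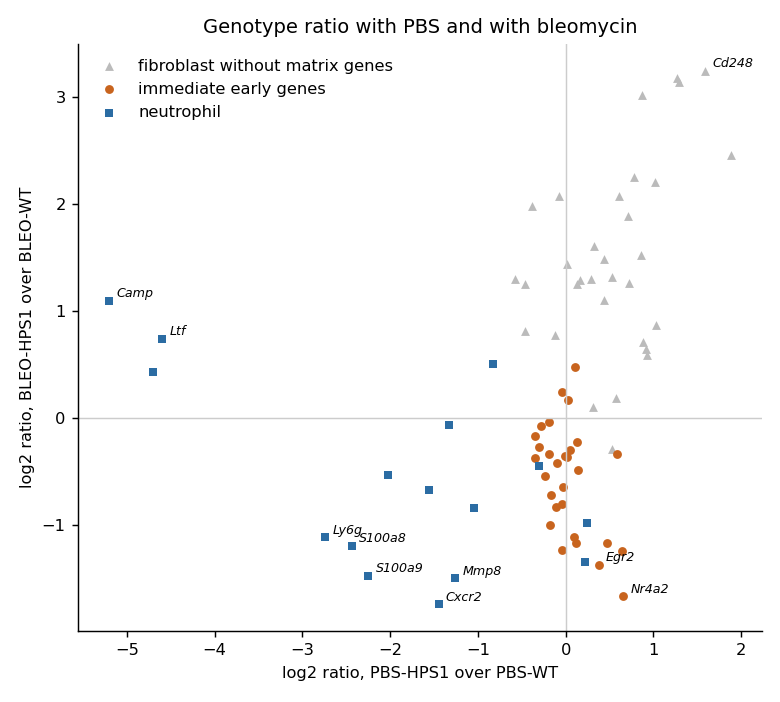
Log2 ratio of mutant over wild type with PBS (horizontal) and with bleomycin (vertical), 1 symbol per gene, for the neutrophil list (blue squares), immediate early genes (orange circles) and fibroblast genes without the matrix genes (grey triangles). Most neutrophil genes lie left of 0, with Cxcr2, S100a9 and Mmp8 also below 0, Camp and Ltf at far left but above 0, and the immediate early genes spread downward near a PBS ratio of 0.

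Mast cell and basophil genes had 5 lower and 0 higher of 11, with a median of -0.38 (corrected -0.73, 5 lower). Tpsb2, a mast cell tryptase, was at 3.67 CPM in PBS-WT and 2.25 CPM in PBS-HPS1, and at 3.89 CPM in BLEO-WT against 0.839 CPM in BLEO-HPS1, a log2 ratio of -2.18 (-2.66 to -1.79). Cpa3, a mast cell protease, rested on 131 and 27 reads in the bleomycin libraries and had -1.91 (-2.62 to -1.36). Hdc, which makes histamine, was at 89.1, 104, 52.8 and 20.8 CPM, with a log2 ratio of -1.34 (-1.44 to -1.26). Hdc belongs to the neutrophil list as well and counts among the lower genes of both lists. The PBS ratios of Tpsb2 and Cpa3 were -0.70 and -0.95, below 0 but short of 2-fold, and that of Hdc was 0.22.

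Some genes of type II alveolar cells, which make surfactant, were lower in BLEO-HPS1. Of 23 alveolar epithelial genes 5 were lower and 0 higher, with a median of -0.23 (corrected -0.37, 5 lower) and a PBS median of -0.28 with 0 lower. The summed level of the list was 2044, 1532, 1614 and 1409 CPM. Slc34a2, the phosphate transporter of these cells, was at 63.6, 47.2, 25.9 and 7.65 CPM in the 4 libraries, a log2 ratio of -1.76 (-1.91 to -1.62). Lamp3, of the lamellar body membrane, gave -1.99 (-2.44 to -1.62) from 20.1, 14.6, 3.85 and 0.950 CPM. Lamp3 belongs to the dendritic cell list as well, where it was the 1 lower gene of 17. Sftpa1, surfactant protein A, was at 132, 102, 69.1 and 28.1 CPM and had -1.29 (-1.37 to -1.22), with a corrected ratio of -0.90. For all 3 the 4 libraries stood from high to low in the order given. Sftpc, surfactant protein C, followed that order with a smaller difference of -0.89 (-0.92 to -0.86), while Napsa, the protease that processes surfactant proteins and is also made by other cells, had 0.89 (0.86 to 0.92).

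Adipocyte genes had 5 lower and 0 higher of 14, with a median of -0.40 (corrected -0.27, 4 lower), and the lower ones were scarce. Cfd, the adipocyte protease adipsin, was at 0.295 and 0.535 CPM in the PBS libraries, 11.6 CPM in BLEO-WT and 4.81 CPM in BLEO-HPS1, a log2 ratio of -1.26 (-1.46 to -1.08). The adipokine gene Adipoq gave -1.93 (-2.71 to -1.34) from 114 and 23 reads in the bleomycin libraries. Adipoq was at 0.0513 and 0.0303 CPM with PBS, near the limit of detection, while Cfd was above it.

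Targets of p53, the factor that bleomycin's DNA breaks activate, had 7 lower and 0 higher of 30, with a median of -0.21 (corrected -0.30, 4 lower). Mdm2, the ligase that degrades p53, was at 88.4, 94.0, 84.4 and 29.3 CPM in the 4 libraries, a log2 ratio of -1.52 (-1.60 to -1.45). BLEO-WT was not above the PBS libraries for that gene, and BLEO-HPS1 alone was low. Gadd45a, a stress-response gene of growth arrest, had 56.8 CPM in BLEO-WT and 25.5 CPM in BLEO-HPS1, which gave -1.15 (-1.24 to -1.07) and a corrected ratio of -1.48. Cdkn1a, the p21 cell cycle inhibitor, was at 274 and 327 CPM in the PBS libraries and at 702 and 604 CPM with bleomycin, with a genotype ratio of -0.22 (-0.24 to -0.20).

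The list of Hermansky-Pudlak complexes, the BLOCs and AP-3 with some related genes, had 5 lower (20.8%) and 0 higher of 24 genes. The 5 included the mutated gene Hps1 itself, and Slc7a11 and Lyst, which are not subunits of these complexes. The share is therefore not a measure of the complexes alone. The list's median was -0.03, the same as for all genes, and was above 0 with DESeq2 size factors (0.03) and upper-quartile factors (0.08). Slc7a11, the cystine importer, was at 10.7, 10.7, 14.2 and 4.97 CPM in the 4 libraries, a log2 ratio of -1.51 (-1.70 to -1.33). Lyst, the lysosomal trafficking regulator, was at 104, 106, 67.2 and 27.7 CPM and had -1.28 (-1.36 to -1.20). Hps3, of BLOC-2, gave -1.06 (-1.15 to -0.96) from 42.2 CPM in BLEO-WT and 20.3 CPM in BLEO-HPS1. These 3 became -0.60, -0.40 and -0.47 with the correction, which left Hps1 as the 1 gene of the list that was 2-fold lower. With the correction 1 gene of the list was 2-fold higher. Nutrient-sensing genes of the mTORC1 and folliculin pathway had 5 lower of 33 (15.2%, against 9.61% of all genes), with 2 after the correction. Their median was -0.21. Haem and iron genes had 6 lower of 23 (26.1%), with 1 after the correction. Slc40a1, the iron exporter ferroportin of macrophages, was lower under both treatments, at 27.1, 9.22, 12 and 4.48 CPM, a log2 ratio of -1.42 (-1.62 to -1.23) after bleomycin, but its corrected ratio was -0.78. The iron list's median was 0.11 as measured, -0.02 with total counts alone and -0.14 after the correction.

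Chemokine and receptor genes split. Of 45 compared genes 10 were lower and 9 higher, with a median of 0.04 that was below 0 with total counts alone (-0.10) and after the correction (-0.09). The lower ones included Cxcl2, Cxcr2 and Ccr2. On the higher side Ccl11, the eosinophil attractant eotaxin, was at 0.205, 0.828, 0.778 and 4.40 CPM in the 4 libraries, a log2 ratio of 2.46 (2.10 to 2.92). Ccl5, a product of cytotoxic lymphocytes, was at 82.9, 76.1, 45.9 and 167 CPM and gave 1.86 (1.81 to 1.92), and Cxcr3, the receptor by which such cells are recruited, gave 1.94 (1.85 to 2.02).

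A further set of lower genes was found in families with long transcripts, and these decreases were mostly gone after the correction. Histone methyltransferases and chromatin remodellers had 14 lower of 50 with a median of -0.70 and a median transcript of 8052 bases, and 0 lower with a median of -0.21 after the correction. The HECT and RBR ubiquitin ligases went from 9 lower of 37 (median -0.73) to 0 (-0.13), and centrosome genes from 9 lower of 36 (-0.62) to 0 (-0.37). Zinc finger genes named Zfp had 44 lower and 2 higher of 268, with a median of -0.55, and 6 lower and 1 higher with a median of -0.14 after it. Kdm6a, a histone H3 lysine 27 demethylase, was at 43.4, 45.6, 30.3 and 12.6 CPM in the 4 libraries, a log2 ratio of -1.27 (-1.39 to -1.15) and a corrected ratio of -0.49. The PBS medians of the chromatin, ligase and centrosome lists were 0.02, 0.04 and -0.03, with 0 lower genes in each.

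Genes higher in BLEO-HPS1 were led by stromal genes even with the named matrix genes and collagens set aside. The fibroblast list had 0 lower and 23 higher of 32, with a median of 1.31 (corrected 1.44, 20 higher), and the smooth muscle and pericyte list had 0 lower and 10 higher of 18 with a median of 1.26 (corrected 0.73). Cygb, cytoglobin, which marks stellate fibroblasts, was at 4.32, 10.6, 12 and 106 CPM in the 4 libraries, a log2 ratio of 3.14 (3.05 to 3.24). Clec3b, tetranectin, gave 3.0 (2.91 to 3.10) from 6.70, 16.2, 13 and 105 CPM. Both genes were also above wild type in PBS-HPS1, by 1.29 and 1.27. Thy1, which the sort used and which fibroblasts also express, belongs to both the ILC2 and the fibroblast lists and had a log2 ratio of 1.30, from 224 CPM in BLEO-WT and 551 CPM in BLEO-HPS1.

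Cytotoxic lymphocyte genes had 12 higher and 1 lower of 22, with a median of 1.06 (corrected 1.15, 15 higher). Gzma, granzyme A, was at 58.2, 87.3, 23.5 and 141 CPM, and its log2 ratio was 2.58. The exception was Gzmg, granzyme G, with 96 reads in BLEO-WT and 0 in the other 3 libraries, which was at least 25.8-fold lower in BLEO-HPS1 when that library is set at a floor of 3 reads. The counting interval of its log2 ratio, which takes in the error of the BLEO-WT count as well, ended at -4.36. Rhox5, a homeobox gene of the X chromosome, likewise had 123 reads in BLEO-WT against 2 in BLEO-HPS1, a log2 ratio of -4.81 (-8.69 to -3.75). B cell genes without immunoglobulin genes had 0 lower and 9 higher of 21, with a median of 0.82 (corrected 1.10). Cd79a, a component of the B cell receptor, was at 35.5 CPM in BLEO-WT and 124 CPM in BLEO-HPS1. Among the short, housekeeping transcripts, cytosolic ribosomal proteins had 0 lower and 18 higher of 87, with a median of 0.82 that became 0.34 with the correction, and nuclear-encoded oxidative phosphorylation genes had 0 lower and 1 higher of 73, with a median of 0.67 (corrected 0.22). MHC class II genes had 0 lower and 2 higher of 11, with a median of 0.82 (corrected 0.44) against -0.84 with PBS. Replication-dependent histones, whose messages mostly lack poly(A) tails, had 0 lower and 13 higher of 20, and 4 higher after the correction.

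The neighbourhood of Hps1 was described gene by gene. Within 5 Mb on either side of the gene on chromosome 19 lay 105 of the compared genes, of which 11 were lower (10.5%, against 9.61% of all genes) and 4 higher (3.81%, against 6.05%), with a median of -0.08. Only 1 of them was lower and 1 higher under both treatments. Pyroxd2, an oxidoreductase gene on the minus strand at chr19:42725858-42752775, lies downstream of Hps1 (chr19:42755105-42779978, minus strand), with its start 2.33 kb from the end of Hps1. It was at 1.57 CPM in PBS-WT and 10.4 CPM in PBS-HPS1, and at 3.43 CPM in BLEO-WT against 8.30 CPM in BLEO-HPS1, with log2 ratios of 2.72 with PBS and 1.27 (1.06 to 1.49) with bleomycin, where the corrected ratio was 0.96. Both mutant libraries stood above both wild-type libraries. Sfxn2, a mitochondrial serine carrier gene 3793 kb away, had the opposite order at 18.9, 5.95, 19.5 and 7.52 CPM, a log2 ratio of -1.37 (-1.53 to -1.22). Both were named after their values were seen.

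The largest decrease of all genes above 10 CPM was Gm12191, a pseudogene, at 15.7, 2.60, 32.3 and 4.67 CPM in the 4 libraries, a log2 ratio of -2.78 (-2.97 to -2.62). Rpl3-ps1, a copy of a ribosomal protein gene, was likewise lower under both treatments, by -1.97 with PBS and -1.79 (-1.87 to -1.72) with bleomycin, while Rpl3 itself had 0.88 (0.87 to 0.89) with bleomycin. Reads of such copies can be shared with near-identical genes. Whether they were was not tested, so both values are uncertain. The same holds for Gm47283, which lies in the pseudoautosomal region shared by the sex chromosomes and had -1.95 (-2.17 to -1.75).

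At the threshold itself the genes just inside a 2-fold decrease were Homer1, with 15.3 CPM in BLEO-WT and 7.61 CPM in BLEO-HPS1, and Ddi2, with 165 and 82.7 CPM. Those just outside were Scaf11, with 100.1 and 50.0 CPM, and Gm26669, with 2.59 and 1.28 CPM. On the higher side Tmem51, with 34.0 and 68.1 CPM, and Adcy2, with 1.99 and 4.01 CPM, were just inside, and Rps19, with 899.5 and 1799 CPM, and Creb3l1, with 4.87 and 9.77 CPM, were just outside. All 8 had log2 ratios of 1.0 in size at 1 decimal.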

How the data were processed

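RNA-Seq of 4 libraries, 1 per genotype and treatment, was used. The authors deposited whole-number read counts per Ensembl gene. RNA was extracted with RNeasy columns and libraries were made with the SMARTER mRNA-Seq kit, and the aligner, counter, genome build and annotation are not given in the sources used here. Counts were scaled with TMM factors (edgeR 4.0.16 in R 4.3.3), and log2 ratios were taken with a prior count of 2 for genes with at least 1 CPM in either bleomycin library. A gene was called at a 2-fold difference, because edgeR's quasi-likelihood test has no residual degrees of freedom with 1 library per group. GC content and longest transcript length came from GENCODE M21, which matched 49056 of 49315 identifiers, and 25 of the kept genes had no GC content. The correction was a loess fit (span 0.3) of the ratio on both. The calculation was tested on simulated data. Promoters were RefSeq's (GRCm38.p6).

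The genes named were Hps1, the 25 largest decreases and 15 largest increases at 10 CPM or more, the 10 and 5 largest after the correction, up to 4 list members by size of ratio and 4 by level, the sort's markers, the genes next to each threshold, and genes marked as named after their values were seen. Itgam appears under 2 identifiers. The members, lists and rules were chosen with earlier results of these data known. Alternatives were other scalings (DESeq2 1.42.0 size factors, upper quartile, total counts), prior counts of 0.5 and 10, filters, thresholds and the correction.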

Additional observations from a re-analysis of the deposited data

Results flagged for a closer look

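Some genes were 2-fold different between genotypes under both treatments but in opposite directions. In the mutant 23 genes were lower with bleomycin and higher with PBS, and 54 genes were higher with bleomycin and lower with PBS. Only those among the named genes are described here, and Apold1 and Gm26809 were named after their values were seen. With 1 library per group the difference between treatments was not tested. Apold1, an endothelial immediate early gene, was at 13.8 CPM in PBS-WT, 41.9 CPM in PBS-HPS1, 22.8 CPM in BLEO-WT and 8.99 CPM in BLEO-HPS1, so that its log2 ratio was 1.60 with PBS and -1.34 with bleomycin. Gm26809, a gene without a given function, went the same way, at 1.09 with PBS and -1.59 with bleomycin, from 23.9, 51.1, 20 and 6.63 CPM in the same order of libraries. The others described here were lower in the mutant with PBS and higher with bleomycin. Plac8, expressed by monocytes and lymphocytes, was at 298, 103, 64.2 and 244 CPM, with log2 ratios of -1.53 and 1.93. Ly6c2, the Ly6C antigen of inflammatory monocytes, was at 139, 62.5, 63.4 and 146 CPM, with -1.16 and 1.20. Ifi27l2a, an interferon-induced gene, was at 50.1, 21.1, 48.6 and 129 CPM, with -1.25 and 1.41. Nfasc and Fez1, neuronal genes, had -3.32 and 1.69, and -1.94 and 2.11, from 42 and 46 reads in BLEO-WT. Camp had -5.20 and 1.10 from 8.68, 0.212, 1.19 and 2.56 CPM. Of the 1333 genes lower with bleomycin, 23 were higher with PBS, where 1.21% of all genes were higher. Of the 839 genes higher with bleomycin, 54 were lower with PBS, where 2.11% of all genes were lower.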

How the results depend on the processing

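No paired analysis was possible because each group was 1 library and no test was made. The count of 1333 lower genes became 4255 without the expression filter, 471 with the GC and length correction, 579 with the GC correction alone, 32 at 4-fold and 3404 at 1.5-fold, and the corrected sets shared 297 and 382 genes with it. The count of 839 higher genes became 3187 without the filter, 387 at 10 CPM or more, 127 at 4-fold and 2668 at 1.5-fold. Lower genes made up 70.4% of the differences at 10 CPM or more, 42.2% with the correction and 43.9% with that for GC content alone. The rho with GC content was 0.617 at 10 CPM or more and 0.582 in protein-coding genes, and that with length was -0.515 and -0.446. The eosinophil list, with 3 compared genes, had a median of -1.01 that became 0.42 without the filter and 0.054 with at least 10 reads in both libraries. Genes named as 2-fold different kept their direction under every alternative that gave them a value. Many of them were chosen by the size of their ratio in these data, so a kept direction says little. The 2-fold calls held less well. With the GC and length correction 73 of 138 named lower genes and 51 of 83 named higher genes were still 2-fold different. With that for GC content alone the numbers were 75 and 60. Of 202 named genes that were not 2-fold different, 162 kept their direction with the GC and length correction, 165 with that for GC content alone, 188 with total counts alone and 192 with upper-quartile factors. The precision of genes near 1 CPM is limited by their read counts, and the spread between mice is unknown.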
